A study of Homo sapiens with 12 samples.

Results

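The 26S proteasome degrades ubiquitin-tagged proteins. Its 19S cap holds the proteins that receive the tag and the enzymes that remove it, and 6 genes of that cap are described here. They were taken from the deposited expression table by gene name and not by a measured value: PSMD1 and PSMD2, which encode the large scaffold subunits of the 19S base, PSMD4 and ADRM1, which encode its ubiquitin receptors, and UCHL5 and USP14, which encode deubiquitinases that bind it. All 6 were found among the 58676 genes of the table, and all 6 were among the 12194 genes with a mean of at least 1 FPKM (fragments per kilobase of gene length and relative to the library's depth) that were tested.

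The RNA came from A549 cells, a long-established line from a human lung carcinoma. There were 3 lines: a control with the genotype label Control1, and 2 knockout lines of NFE2L1, labelled NFE2L1 KO1 and NFE2L1 KO2, called KO1 and KO2 here. Each was given DMSO vehicle or the proteasome inhibitor bortezomib at 200 nM, in both cases for 4 h, which makes 6 groups of 2 libraries. NFE2L1 encodes a transcription factor known to act on proteasome genes when the proteasome is inhibited, and the series title asks what its knockout does to gene expression. The labels do not say how the lines were made, whether each is 1 clone, or whether the libraries of a group came from separate cultures, so the p-values below measure only the spread between these libraries, which may be technical.

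Among the 6 proteins, PSMD1 and PSMD2 are large helical-repeat proteins that flank the ring of ATPases. PSMD2 is a docking site for shuttling receptors that bring in ubiquitinated proteins and for USP14. PSMD1 holds ADRM1, which in turn binds and activates UCHL5. PSMD4 binds ubiquitin chains through ubiquitin-interacting motifs. USP14 and UCHL5 are cysteine proteases that trim chains at the base, in addition to the metalloprotease PSMD14 of the lid, and UCHL5 also belongs to the INO80 chromatin remodelling complex.

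The members lie on 5 chromosomes. By the deposited coordinates, which for all 6 are identical to those of GENCODE release 29 on GRCh38, PSMD1 (ENSG00000173692) spans chr2:231056864-231172827 on the + strand, PSMD2 (ENSG00000175166) spans chr3:184298709-184309054 on the + strand, and PSMD4 (ENSG00000159352) spans chr1:151254703-151267479 on the + strand. ADRM1 (ENSG00000130706) spans chr20:62302093-62308862 on the + strand, UCHL5 (ENSG00000116750) spans chr1:193012250-193060080 on the - strand, and USP14 (ENSG00000101557) spans chr18:158383-214629 on the + strand. All are protein-coding genes, with deposited lengths between 2142 bases for ADRM1 and 6661 bases for UCHL5.

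Promoter sequence was available for 5 of the 6 members (RefSeq, GRCh38.p14), and PSMD4 is named only. The 250 bases before the first listed transcript start are shown for USP14 and UCHL5, because these 2 deubiquitinases differed in their values under bortezomib, and for PSMD1, the member with the lowest values in the knockout lines relative to the control. They lie at chr18:158307-158556 on the + strand for USP14, at chr1:193059361-193059610 on the - strand for UCHL5 and at chr2:231056617-231056866 on the + strand for PSMD1. Each is written 5′ to 3′ on the gene's strand, and capitals mark a match to the core of the antioxidant response element, TGACNNNGC, the element to which NFE2L1 and the related factor NFE2L2 are known to bind.
USP14: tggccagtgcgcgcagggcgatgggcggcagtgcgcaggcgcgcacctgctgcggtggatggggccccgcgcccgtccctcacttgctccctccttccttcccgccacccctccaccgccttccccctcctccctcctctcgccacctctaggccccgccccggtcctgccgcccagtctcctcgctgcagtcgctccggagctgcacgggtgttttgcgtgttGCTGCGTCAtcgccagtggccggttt
UCHL5: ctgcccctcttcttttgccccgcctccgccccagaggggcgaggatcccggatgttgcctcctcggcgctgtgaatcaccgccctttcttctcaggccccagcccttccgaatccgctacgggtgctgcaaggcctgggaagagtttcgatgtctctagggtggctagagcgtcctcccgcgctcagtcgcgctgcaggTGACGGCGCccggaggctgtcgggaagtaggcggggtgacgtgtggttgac
PSMD1: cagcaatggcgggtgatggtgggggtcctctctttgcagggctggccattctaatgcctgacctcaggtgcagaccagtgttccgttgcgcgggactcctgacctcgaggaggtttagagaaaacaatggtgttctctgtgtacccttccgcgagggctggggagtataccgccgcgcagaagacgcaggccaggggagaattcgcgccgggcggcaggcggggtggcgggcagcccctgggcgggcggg

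In the windows, which run from 250 bases before to 50 bases after a transcript start, the USP14 match lay on the other strand at position -26 from the start, so it is printed as GCTGCGTCA. The UCHL5 match, TGACGGCGC, lay at position -51. PSMD1 had no match in the 250 bases printed and 1 just after the start, TGACTGAGC, at position 40. ADRM1 had TGACACAGC at position -137 of its first listed window, and the windows of PSMD2 had no match. The core was searched on both strands and occurred in 13.34% of all 34943 windows, and in at least 1 window of 16.1% of 27167 genes. Of the 25 other 19S and 20S subunit genes with a window, 7 had it (28.0%). A heat shock element pair (GAANNTTC, in 6.79% of windows) and a C/EBP-ATF element (TGATGNAA, in 3.62%) had no match in the members' windows. These are matches of letters only, and no binding was measured.

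The libraries held 13211608 to 23819258 reads assigned to genes, and the lowest count for any member in any library was 441 reads, so counting error was small beside the differences between libraries. NFE2L1 RNA in vehicle was 11.6% and 9.82% of the paired control library in KO1, and 25.6% and 22.2% in KO2. With bortezomib KO1 had 24.9% and 18.9% of the control and KO2 had 33.7% and 26.8%, and within KO1 the level was 3.20 and 2.41 times as high with bortezomib as with vehicle. All 6 markers of the A549 type reached 1 FPKM, while none of 3 leukocyte and none of 3 endothelial markers did. Of 4 fibroblast markers only COL1A1 did, at 1.42 to 23.3 FPKM. The 6 libraries whose titles end in R2 stood apart: mitochondrial genes took 12.3% to 19.3% of their reads, against 5.44% to 6.80% in the other 6, which carry R1 in the knockout lines and no number in the control line. Below, a pair is 2 libraries of the same kind, either both R2 or both from the other 6.

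In level, PSMD2 was the most abundant of the members per length, with a mean of 57.3 FPKM over the 12 libraries, followed by PSMD1 at 44.2, PSMD4 at 37.4, USP14 at 25.8, ADRM1 at 23.9 and UCHL5 at 6.89 FPKM. UCHL5 was the lowest in 12 of 12 libraries. The order in the middle was less fixed: PSMD2 was above PSMD1 in 10 of 12 libraries, PSMD1 above PSMD4 in 8 and PSMD4 above USP14 in 11. USP14 was above ADRM1 in 6 of 12, and these were the libraries without the suffix R2. In every R2 library ADRM1 was the higher.

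**Figure D1:**
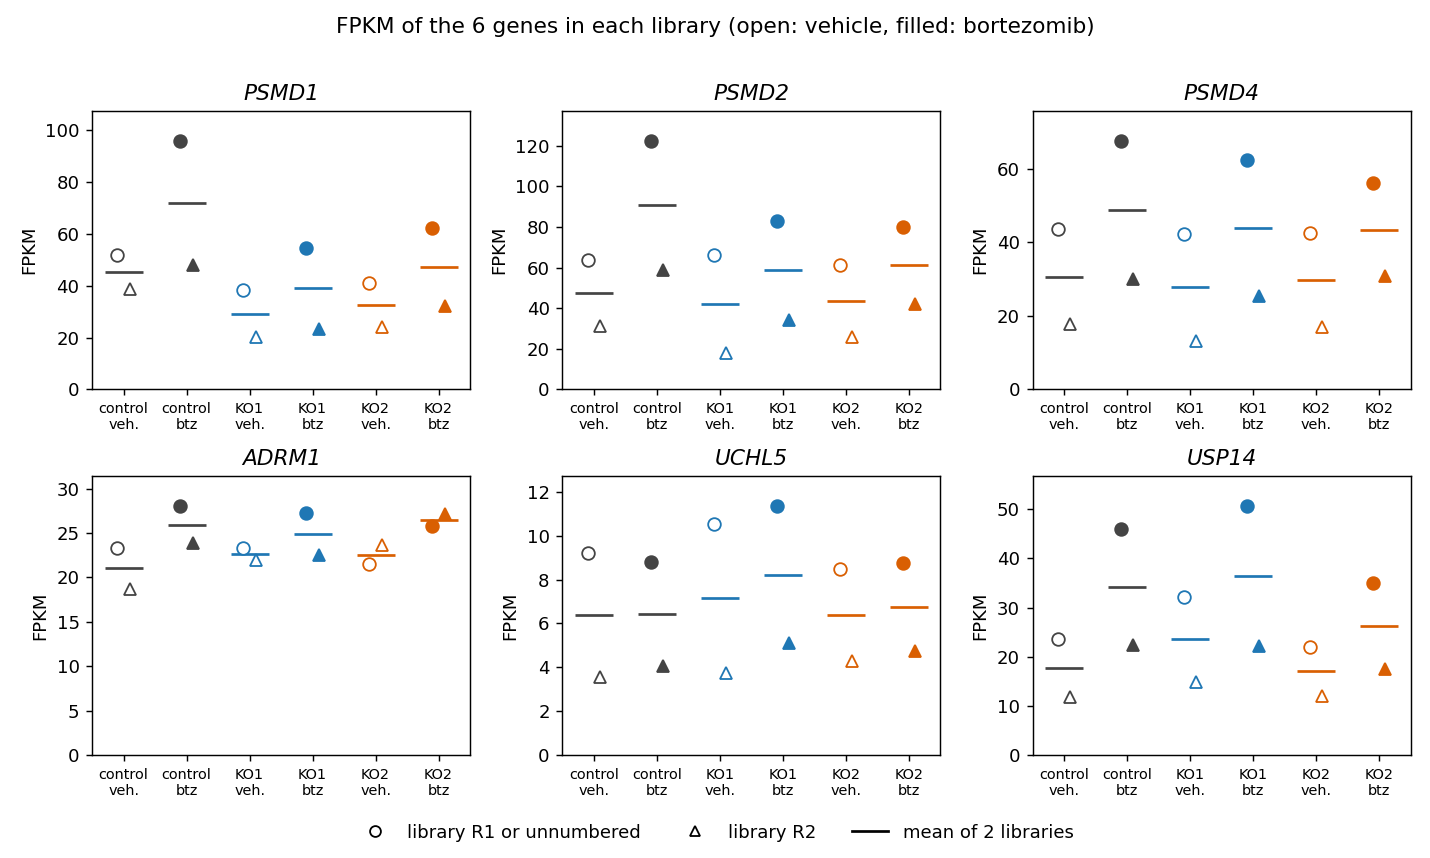
FPKM (vertical axis) of each member in the 12 libraries by group, with circles for the R1 or unnumbered libraries, triangles for the R2 libraries, open symbols for vehicle, filled symbols for bortezomib and bars for the mean of 2 libraries. The R2 library was the lower of its group in 6 of 6 groups for every member except ADRM1, whose R2 library was higher in 2 of 6.

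The difference between the 2 libraries of a group was large for 5 of the members. The R2 library had a median of 0.520 times the FPKM of its partner for PSMD1, 0.449 for PSMD2, 0.407 for PSMD4, 0.455 for UCHL5 and 0.491 for USP14. ADRM1 differed from these, with a median of 0.896 and a range of 0.801 to 1.10 over the 6 groups, near the median tested gene at 0.866. The 3′ end of ADRM1 overlaps LAMA5 on the opposite strand by 908 bases, and 894 bases of it overlap the antisense gene RP11-157P1.4. LAMA5 had a median of 91.8 FPKM in the R2 libraries and 53.3 in the others, and RP11-157P1.4 had 15.5 and 6.48. Whether the counting used strand is not given in the sources used here, and the part of these genes in the ADRM1 values was not tested.

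Because of that difference, groups overlapped for most members, and limma on log2(FPKM + 1) without a replicate term called none of the 6 in any comparison. The fit called a gene at a Benjamini-Hochberg adjusted p under 0.05 over all tested genes. Shares of all genes called, given below as background, count both directions. The replicate difference ran alike in all groups, and the fit with the replicate number as a block is therefore given beside each result. Fold changes of bortezomib against vehicle are the same in both fits.

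Bortezomib raised 4 of the 6 members in the fit with the block. Over the mean of the 3 lines, USP14, PSMD2, PSMD4 and PSMD1 rose, and ADRM1 and UCHL5 did not pass the test. USP14 had the largest log2 fold change, 0.69 (SE 0.08, limma adjusted p = 0.0001253), close to PSMD2 at 0.69 (SE 0.12, adjusted p = 0.001016) and PSMD4 at 0.67 (SE 0.10, adjusted p = 0.0006327). PSMD1 had 0.48 (SE 0.10, adjusted p = 0.003427), ADRM1 0.21 (SE 0.08, adjusted p = 0.05635) and UCHL5 0.12 (SE 0.09, adjusted p = 0.2767). These 4 of 6 calls stand against 54.9% of all tested genes called in either direction, so the share called in either direction is near the background. All 4 were higher, while of the 12194 tested genes 3290 were called higher and 3400 lower. The members' median was 0.57 and that of all tested genes -0.01. Without the block none of the 6 was called, against 11.6% of all genes, and the lowest limma adjusted p was 0.2607, for USP14. An unadjusted p under 0.05 was reached there by none of the 6 and by 3275 of the 12194 tested genes. In RNA from whole cultures, more cells with a transcript and more transcript per cell cannot be told apart. With the block, the same 4 were called in each of the 12 fits that left out 1 library.

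Some cell type markers moved with bortezomib too. The 4 fibroblast markers summed to 1.59 to 5.62 FPKM in the vehicle libraries and to 6.17 to 23.7 with bortezomib, and nearly all of it was COL1A1, which rose with a log2 fold change of 1.77 (adjusted p = 0.006228 in limma without the block). The other 3 fibroblast markers stayed near 0, with highest values of 0.408 FPKM for COL1A2, 0.134 for PDGFRB and 0.0425 for DCN. Of the A549 markers, EPCAM rose by 0.93 (adjusted p = 0.03529 without the block) and CDH1 fell by 0.44 with the block only (adjusted p = 0.003186), while the sum of all 6 ran from 1476 to 4979 FPKM with vehicle and from 1425 to 4346 with bortezomib. The part of these in the members' values was not tested.

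**Figure D2:**
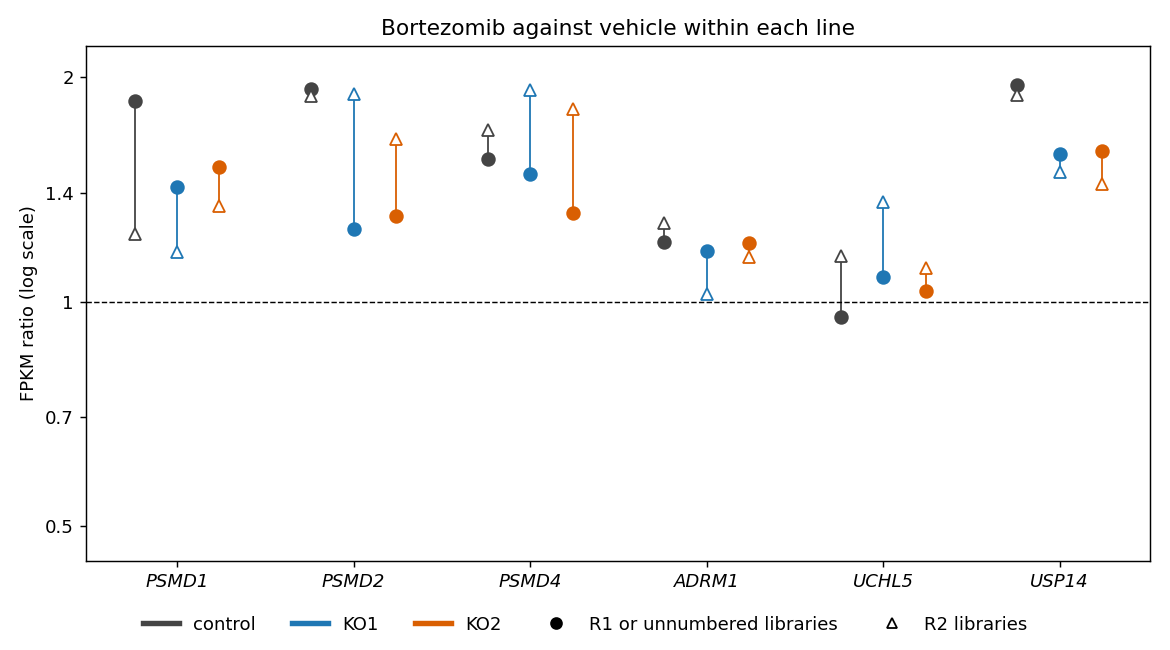
Ratio of FPKM with bortezomib to FPKM with vehicle (vertical axis, log scale) for each member in the control, KO1 and KO2 lines, with circles for pairs of R1 or unnumbered libraries and triangles for pairs of R2 libraries. PSMD1, PSMD2, PSMD4, ADRM1 and USP14 were above 1 in 6 of 6 pairs and UCHL5 in 5 of 6.

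PSMD1, the scaffold that holds ADRM1, had 51.6 and 38.9 FPKM in the vehicle libraries of the control line and 95.9 and 47.9 with bortezomib, the R2 library being given second here and below. In KO1 it had 38.4 and 20.1 with vehicle and 54.6 and 23.5 with bortezomib. In KO2 it had 41.0 and 23.9 with vehicle and 62.1 and 32.1 with bortezomib. Each bortezomib library was thus above its paired vehicle library, by 1.17 to 1.86 times, and the groups overlapped in each line. The ratio was larger outside R2 in all 3 lines, at 1.86 against 1.23 times in the control line. HTR2B, which lies on the opposite strand inside PSMD1, reached at most 0.0682 FPKM.

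PSMD2, the docking scaffold, had 63.6 and 31.3 FPKM with vehicle in the control line and 123 and 59.0 with bortezomib. KO1 had 66.3 and 18.1 with vehicle, and 82.8 and 34.3 with bortezomib. KO2 had 61.4 and 25.6 with vehicle, and 80.0 and 42.3 with bortezomib. The control line rose alike in both pairs, by 1.93 and 1.89 times. In the knockout lines the pairs differed, with 1.25 and 1.90 times in KO1 and 1.30 and 1.65 times in KO2, so the lower values came from the R1 libraries. The PSMD2 model lies wholly inside that of EIF2B5 on the same strand, which ran from 5.63 to 8.37 FPKM over the libraries.

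PSMD4, the receptor that binds chains through ubiquitin-interacting motifs, had 43.7 and 17.7 FPKM with vehicle in the control line and 67.7 and 30.1 with bortezomib. KO1 had 42.2 and 13.3 with vehicle, and 62.6 and 25.5 with bortezomib. KO2 had 42.6 and 17.0 with vehicle, and 56.0 and 30.8 with bortezomib. The ratio was above 1 in every pair, between 1.31 and 1.92, and in each line it was the R2 pair that had the higher one. PSMD4 overlaps no other gene model in the table.

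ADRM1, the receptor that brings in UCHL5, differed less. The control line had 23.3 and 18.7 FPKM with vehicle and 28.0 and 23.8 with bortezomib. KO1 had 23.3 and 22.0, and then 27.3 and 22.5. KO2 had 21.5 and 23.6, and then 25.8 and 27.1. The groups did not overlap in the control line and in KO2, and they overlapped in KO1, where the R2 pair had a ratio of 1.02. All 6 ratios lay between 1.02 and 1.27, a narrow range, and the adjusted p with the block stayed above 0.05 in each line.

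UCHL5 had 9.23 and 3.54 FPKM with vehicle in the control line, and 8.80 and 4.07 with bortezomib. KO1 had 10.5 and 3.74, and then 11.4 and 5.09. KO2 had 8.47 and 4.27, and then 8.76 and 4.74. Its groups overlapped in each line, and the unnumbered pair of the control line was the only one of 6 below 1, at 0.954. UCHL5 overlaps TROVE2 on the opposite strand by 659 bases, and TROVE2 ran from 2.76 to 7.12 FPKM.

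USP14, which is activated when it docks on the base, had 23.6 and 11.8 FPKM with vehicle in the control line and 46.0 and 22.3 with bortezomib. KO1 had 32.1 and 14.9, and then 50.7 and 22.3. KO2 had 21.9 and 12.1, and then 34.9 and 17.4. The ratios were even between the pairs of a line, at 1.95 and 1.89 in the control line, 1.58 and 1.49 in KO1, and for KO2 at 1.59 and 1.44. The knockout pairs were all below the control pairs. USP14 shares 110 bases with THOC1 on the opposite strand, which ran from 2.82 to 6.39 FPKM.

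Line by line, limma with the block called 4 members in the control line: USP14 with a log2 fold change of 0.90 (adjusted p = 0.001827), PSMD2 with 0.91 (adjusted p = 0.009096), PSMD4 with 0.68 (adjusted p = 0.02015) and PSMD1 with 0.59 (adjusted p = 0.03148). The background there was 32.4% of all genes (1958 higher, 1994 lower), and 0.467% without the block, where no member was called. Only USP14 remained called in every fit that left out 1 library. Without the unnumbered vehicle library, or the unnumbered bortezomib library, it was the 1 member called. Without either R2 library of the control line, 2 were called, USP14 and PSMD1.

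In KO1 the fit with the block called 2 members, USP14 with 0.59 (limma adjusted p = 0.01382) and PSMD4 with 0.72 (adjusted p = 0.01791). PSMD2 with 0.60 (adjusted p = 0.05289) and PSMD1 with 0.35 (adjusted p = 0.1645) did not pass. In KO2 it called the same 2, USP14 with 0.57 (adjusted p = 0.01777) and PSMD4 with 0.60 (adjusted p = 0.03666), while PSMD2 had 0.54 (adjusted p = 0.07756) and PSMD1 0.50 (adjusted p = 0.06464). The background with the block was 27.7% of all genes in KO1 (1694 higher, 1684 lower) and 27.0% in KO2 (1543 higher, 1754 lower). Without the block it was 0.238% and 0.32%, and there no member was called. No member had an unadjusted p under 0.05 there, while 1153 of the 12194 tested genes had in KO1 and 1169 in KO2. The calls with the block rested on single libraries. None was left in KO1 without its R1 bortezomib library or either R2 library, and none was left in KO2 without either of its vehicle libraries or its R2 bortezomib library. In KO2, 1 was left without its R1 bortezomib library or either bortezomib library of KO1.

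The difference between lines was tested as the interaction of knockout and bortezomib. The log2 difference, knockout mean minus control, was -0.34 (SE 0.25) for PSMD2, -0.32 (SE 0.17) for USP14, -0.16 (SE 0.22) for PSMD1, -0.12 (SE 0.18) for ADRM1, -0.01 (SE 0.22) for PSMD4 and 0.11 (SE 0.19) for UCHL5 in the fit with the block. None of the 6 was called, and none had an unadjusted p under 0.05. The lowest limma adjusted p was 0.5536, for USP14. limma called 0.0% of all genes here with the block and 0.0% without it, with 1305 and 115 genes at an unadjusted p under 0.05. voom on recovered reads with the block called 123 genes and no member. That PSMD1 and PSMD2 were called in the control line and not in the knockout lines is therefore no tested difference.

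The ratio of the 2 deubiquitinases within a library sets aside what both share in that library. USP14 was 2.56 to 3.98 times UCHL5 in FPKM with vehicle (median 2.94, 6 libraries) and 3.67 to 5.47 times with bortezomib (median 4.42). It was higher with bortezomib in 6 of 6 pairs. In the control line it went from 2.56 to 5.22 in the unnumbered pair and from 3.33 to 5.47 in the R2 pair. In KO1 it went from 3.05 to 4.46 and from 3.98 to 4.37, and in KO2 from 2.59 to 3.98 and from 2.83 to 3.67. With bortezomib all 4 knockout libraries lay below their control partners, and with vehicle 1 of 4 did. This was not particular to the deubiquitinases: PSMD1/PSMD2, ADRM1/UCHL5 and PSMD4/ADRM1 also had 0 of 4 knockout libraries above the control with bortezomib. Against vehicle, bortezomib libraries were higher in 6 of 6 pairs for PSMD4/ADRM1, 5 for ADRM1/UCHL5 and 2 for PSMD1/PSMD2. These ratios were chosen with the members' values known and were not tested.

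**Figure D3:**
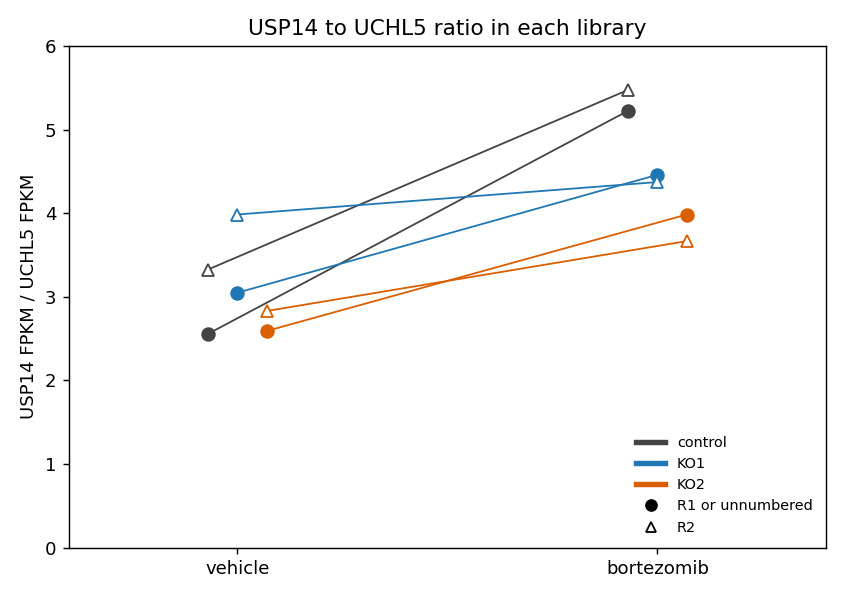
USP14 FPKM divided by UCHL5 FPKM (vertical axis) in each of the 12 libraries, with lines joining the vehicle and bortezomib libraries of a pair. All 6 lines go up, and the 2 control libraries with bortezomib, at 5.22 and 5.47, are the highest.

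In the knockout lines, PSMD1 was the member with the lowest values relative to the control. With vehicle its paired ratios were 0.744 and 0.518 in KO1. They were 0.795 and 0.614 in KO2, and with vehicle the KO1 and control groups did not overlap. With bortezomib they were 0.570 and 0.489 in KO1, and for KO2 0.648 and 0.669. PSMD1 was thus below the control in 8 of 8 pairs, in which each control library served for both KO1 and KO2. PSMD2 was below it in 4 of 4 pairs with bortezomib, at 0.581 to 0.717 times, and in 3 of 4 with vehicle, at 0.577 to 1.04 times.

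With bortezomib, limma with the block called PSMD1 lower in the mean of the knockout lines, with a log2 fold change of -0.87 (SE 0.19, adjusted p = 0.02593), and PSMD2 with -0.74 (SE 0.21, adjusted p = 0.07044) did not pass. This was 1 of 6 members, against a background of 7.66% of all genes, and of 0.164% without the block, where no member was called. In KO1 alone PSMD1 fell by 1.03 on the log2 scale (SE 0.21, adjusted p = 0.02051), against a background of 7.54% with the block and 0.107% without it, where it was not called. In KO2 alone PSMD1 had -0.72 (SE 0.21, limma adjusted p = 0.08944) with the block and was not called, where 586 of the 12194 tested genes were. The block ties knockout to control lines mainly through the R2 libraries, because the unnumbered libraries occur only in the control line and R1 only in the knockout lines. With the unnumbered libraries treated as R1, PSMD1 had -0.75 (SE 0.16, limma adjusted p = 0.0128) in the mean of the knockout lines. It remained the only member called there, against 12.7% of all genes. The call of PSMD1 was lost in 8 of the 12 fits that left out 1 library: any of the 4 control libraries, either KO2 vehicle library, or the R2 bortezomib library of KO1 or KO2. Without either KO1 vehicle library, PSMD2 was called lower as well.

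With vehicle, limma with the block called none of the 6, against 6.18% of all genes, and 0.344% without the block. An unadjusted p under 0.05 was reached with the block by 1 member and by 2644 of the 12194 tested genes. PSMD1 came nearest at a log2 fold change of -0.71 (SE 0.19, adjusted p = 0.05932). With the unnumbered libraries treated as R1 it was called, at -0.58 (SE 0.16, adjusted p = 0.04784), against 8.21% of all genes. In the block by suffix it was also called without the unnumbered vehicle library or either bortezomib library of the control line. voom with the block by suffix called PSMD1 and no other member. The other 5 had log2 fold changes between -0.40 for PSMD2 and 0.22 for ADRM1 with the block by suffix.

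**Figure D4:**
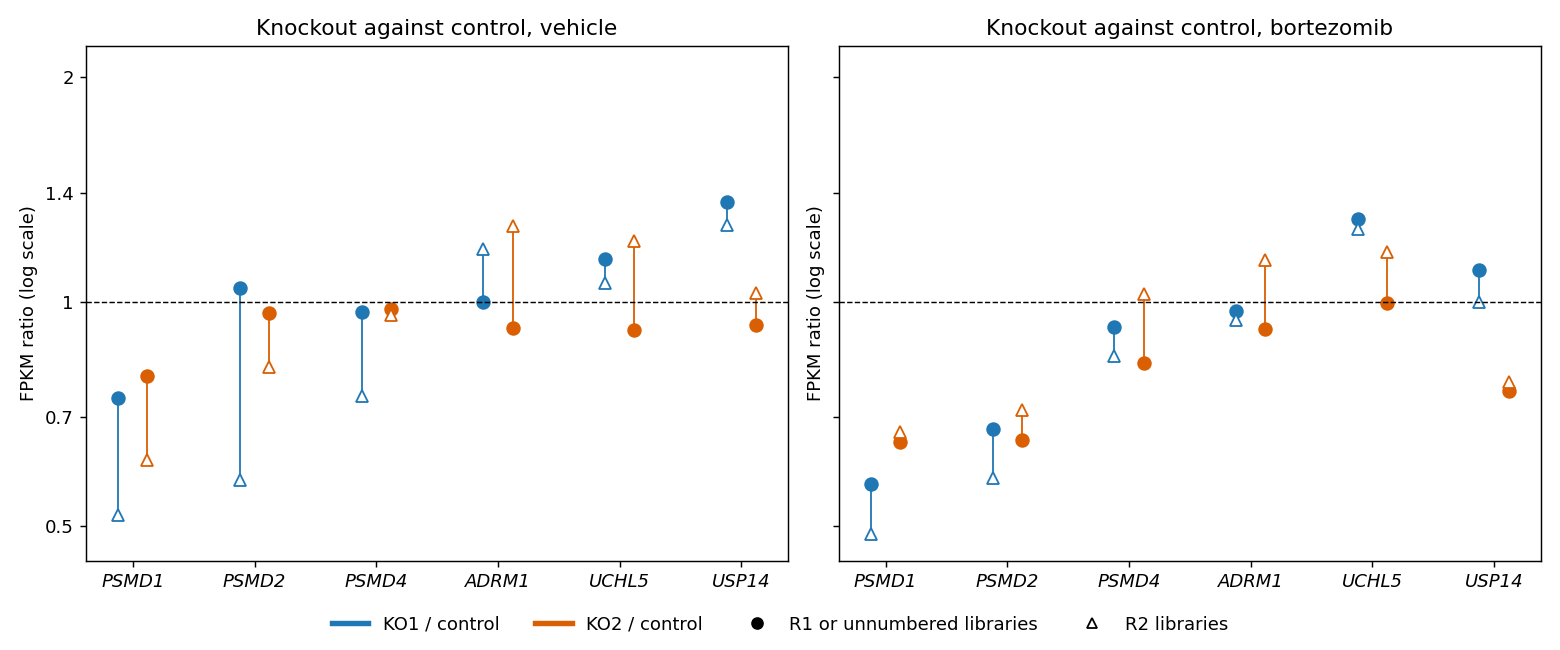
Ratio of FPKM in KO1 or KO2 to FPKM in the control line (vertical axis, log scale) for each member with vehicle (left) and with bortezomib (right), with circles for pairs of an R1 and an unnumbered library and triangles for R2 pairs. Each control library is used for both KO1 and KO2. PSMD1 is below 1 in all 8 pairs, and PSMD2 is between 0.581 and 0.717 in the 4 pairs with bortezomib.

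The ubiquitin receptors and UCHL5 lay nearer to the control than PSMD1 did in each pair, and USP14 is given after them. PSMD4 was at 0.748 to 0.976 times the control with vehicle and 0.828 to 1.02 times with bortezomib. ADRM1 was at 0.921 to 1.26 and 0.919 to 1.14 times, and UCHL5 at 0.917 to 1.21 and 0.995 to 1.29 times. None of these had a call in the mean of the knockout lines.

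USP14 was higher in KO1 than in KO2 within pairs in both treatments, but the groups of the 2 lines overlapped. KO1 was at 1.36 and 1.27 times the control with vehicle, and KO2 was at 0.930 and 1.03 times. With bortezomib KO1 was at 1.10 and 0.998 times and KO2 at 0.759 and 0.780 times. KO1 exceeded KO2 in 4 of 4 pairs, by 1.23 to 1.46 times. The limma log2 difference with the block was 0.41 (SE 0.14, adjusted p = 0.1939) with vehicle and 0.43 (SE 0.14, adjusted p = 0.1933) with bortezomib, so neither passed.

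The other proteasome genes give the setting for these values. With the block, bortezomib raised 6 of 6 ATPases of the 19S base (median log2 fold change 0.76, mean of the 3 lines), from PSMC1 at 0.46 to PSMC6 at 1.04, and 8 of 9 lid subunits (median 0.76), from SEM1, which did not pass at 0.03, to PSMD12 at 0.96. These shares and those of the lists below stand against 54.9% of all tested genes called in either direction (3290 higher, 3400 lower). It raised 11 of 12 tested 20S core subunits (median 0.42), from PSMA7, which did not pass at 0.21, to PSMB4 at 0.81. The median of the 6 members, 0.57, lay between that of the core and those of the other 19S lists. Singly, UCHL5 at 0.12 was below every tested core subunit and ADRM1 was level with PSMA7. The 4 called members lay within the range of the ATPases. Without the block PSMC6 was the only gene of these 3 lists called over the mean of the 3 lines, and no gene of the lists below was. The 3 proteasome-associated factors rose as well, from UBE3C, a ubiquitin ligase, at 0.54 to TXNL1, a thioredoxin-like protein of the cap, at 0.92.

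Movement in both directions was seen among the 6 shuttling receptors, which carry ubiquitinated proteins to the base: 3 rose and 1 fell with the block, from UBQLN2 at -0.50 to UBQLN1 at 1.08, with a median of 0.20. Of the 11 tested INO80 genes 4 rose with the block and 0 fell, where 3290 of the 12194 tested genes rose and 3400 fell. The INO80 median was 0.16, from INO80C, which did not pass at -0.18, to ACTR8 at 0.56. UCHL5 at 0.12 lay near that median and below both other tested members of its enzyme family, BAP1 at 0.39 and UCHL1 at 0.69, which rose.

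**Figure D5:**
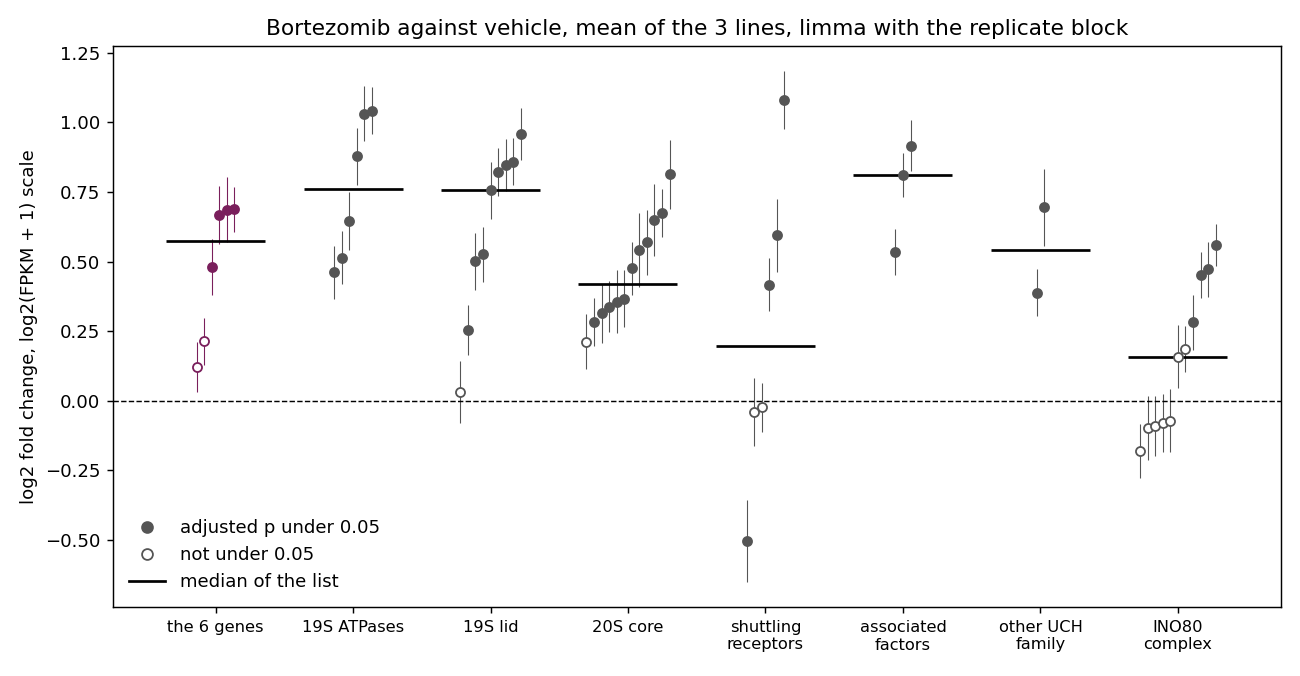
log2 fold change of bortezomib against vehicle (vertical axis, log2(FPKM + 1) scale, mean of the 3 lines, limma with the replicate block) for each tested gene of the 8 lists, with error bars for 1 SE, filled points for an adjusted p under 0.05 and bars for the list's median. The 6 members split into 4 filled points between 0.48 and 0.69 and 2 open ones at 0.12 and 0.21.

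In the knockout lines with vehicle, no gene of the ATPase, lid and core lists was called by limma without the block or with the block by suffix, although all 6 ATPases, all 9 lid subunits and 11 of 12 core subunits had a log2 fold change below 0 in the latter, with medians of -0.32, -0.31 and -0.30. With the unnumbered libraries treated as R1, PSMD14, the metalloprotease of the lid, was called at -0.70 (adjusted p = 0.01291). With bortezomib the block by suffix called 2 of 6 ATPases lower (PSMC4 and PSMC6), 2 of 9 lid subunits (PSMD6 and PSMD12) and none of 12 core subunits, against 7.66% of all genes called in either direction. The other coding called 3 ATPases, 5 lid subunits and 1 core subunit lower, against 12.7%, and added PSMC3, PSMD8, PSMD13, PSMD14 and PSMA4. These genes were named after their values were seen, and without the block none of the 3 lists had a call. The medians in the block by suffix were -0.51, -0.63 and -0.40, against -0.16 for the 6 members. PSMD1 and PSMD14 had no fixed order with vehicle: PSMD1 was lower in the block by suffix, at -0.71 against -0.67, and PSMD14 was lower without the block, at -0.70 against -0.58.

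Likeness of pattern was measured as Pearson's r of log2(FPKM + 1) over the 12 libraries after the means of the 6 R2 and of the 6 other libraries had been subtracted, as a description over libraries that share lines and treatments. The genes most like PSMD2 were PSMC3 (r = 0.985), PSMD13 (0.983) and SH3BP4 (0.980), and 15 of 27 other tested 19S and 20S subunits were among its 100 most alike genes. PSMD4 was most like GLRX3 (0.990), PSMC2 (0.988) and GTF2F1 (0.986), with 6 subunits among its 100.

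PSMD1 was most like RAB3GAP1 (0.976), UBXN4 (0.967) and CYB5R1 (0.964), with 3 subunits among its 100. The other members had none. ADRM1 was most like AFF1 (0.957), NUFIP2 (0.952) and ZMYM5 (0.937), UCHL5 was most like VAPA (0.950), SRP54 (0.926) and GPKOW (0.921), and USP14 was most like C18orf25 (0.970), INSR (0.966) and ICAM1 (0.965). Among the members themselves the highest r was 0.922, between PSMD2 and PSMD4, then 0.846 between PSMD1 and PSMD2, and the lowest was -0.26, between PSMD1 and UCHL5. USP14 and UCHL5 had 0.548, and ADRM1 and UCHL5, which bind each other, had 0.484.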

How the data were processed

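The deposited values are FPKM that the authors scaled to reads assigned to genes: per the file headers there is a gene length for each gene, and FPKM times length in kilobases summed to 1000000 in each library. The submitters' processing notes name CASAVA, STAR 2.5, HTSeq 0.6.1, DESeq2 and hg19 without roles. The deposited coordinates are not those of hg19: 95.2% of the 58676 genes have the position of GENCODE release 29 (GRCh38). Strand and overlap rules of the counting are not given in the sources used here.

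Groups came from the labels. The linear model of limma 3.58.1 (R 4.3.3), moderated with a mean-variance trend, was fitted to log2(FPKM + 1) of the 12194 genes with a mean of at least 1 FPKM, all 12 libraries together, with Benjamini-Hochberg adjustment over those genes and a threshold of 0.05. Fold changes on this scale understate the change of low genes. The test script was run on simulated data before use. With 2 libraries against 2 an exact permutation test cannot go below p = 0.333, so none was used. FPKM times length gave whole reads (within 0.1 read) for 100.0% of values, and voom was run on these as an alternative.

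Libraries with R2 in the title were paired with each other, and the R1 libraries with the unnumbered ones of the control line. The latter pairing was an assumption, since those titles carry no number. The difference between R2 and its partner correlated between groups with r of 0.696 to 0.89 over 15 pairs of groups (median 0.811), across genes. The block had the levels R1, R2 and unnumbered, or the unnumbered libraries were treated as R1. Other alternatives were a pseudocount of 0.1, no filter, rescaling, rescaling without mitochondrial genes, quantile normalization, voom with and without the block, and each library left out. Leaving out libraries in the fit with the block, and using the R2 libraries or the others alone, were added after seeing the data.

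The members, gene lists and tests were chosen with earlier results of these data known. The text names all members and NFE2L1, the 3 genes most like each member, and the highest and lowest gene of each list for bortezomib (mean of the 3 lines) and for the knockout mean with vehicle. Overlapping genes and marker genes were added as background to the values. Python 3.11.15, pandas 2.3.3 and matplotlib 3.10.9 were used for tables and plots.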

Additional observations from a re-analysis of the deposited data

How the results depend on the processing

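Without the replicate block, none of the 6 members was called in the 7 main comparisons under any alternative: a pseudocount of 0.1, no filter, rescaling, rescaling without mitochondrial genes, quantile normalization, voom, or any 1 library left out. The block moved the count, and both codings of it gave 4 called members for bortezomib in the control line and over the mean of the 3 lines, 2 in KO1, 2 in KO2 and 1 for the knockout mean with bortezomib. For the knockout mean with vehicle the block by suffix gave 0 and the other coding 1. voom with the block by suffix gave 4 in the control line and over the mean, 3 in KO1, 4 in KO2, and 1 and 2 for the knockout mean with vehicle and bortezomib. The interaction had 0 under all of these. With the block and 1 library left out, the count ran from 1 to 4 in the control line, 0 to 3 in KO1, 0 to 3 in KO2, 0 to 1 for the knockout mean with vehicle and 0 to 2 with bortezomib, and stayed at 4 over the mean of the 3 lines and at 0 for the interaction. The median log2 fold change of the members kept its sign with every library left out for bortezomib over the mean of the 3 lines (0.36 to 0.78), in the control line (0.14 to 1.16) and in KO2 (0.043 to 0.98). It turned in KO1 (-0.086 to 1.06), for the knockout mean with vehicle (-0.63 to 0.38) and with bortezomib (-0.69 to 0.23), and for the interaction (-0.62 to 0.26). The yardstick for this median, the pooled SD between libraries of a group (0.633), itself holds the R2 difference, so moves smaller than it say little about stability.

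Over all tested genes the block moved the calls as well, from 57 to 3952 for bortezomib in the control line, from 1415 to 6690 over the mean of the 3 lines, from 42 to 754 for the knockout mean with vehicle and from 20 to 934 with bortezomib. Directions of single members turned for small effects: ADRM1 in the knockout mean with bortezomib was 0.10 with the block by suffix and 0.105 by voom with that block, against -0.01 without a block, and PSMD4 in the interaction was 0.013 after rescaling and 0.0118 after quantile normalization. Without the block, leaving out 1 library left its group with a lone R2 or other library and turned the direction of 25 of 43 member results. For bortezomib in the control line it ran from -0.54 to 0.64 for UCHL5. For bortezomib in KO1 it ran from -0.0094 to 0.26 for ADRM1, -0.24 to 0.95 for PSMD1, -0.31 to 1.51 for PSMD2, -0.076 to 1.52 for PSMD4 and -0.41 to 0.87 for UCHL5. For bortezomib in KO2 it ran from -0.076 to 1.15 for PSMD2, -0.035 to 1.24 for PSMD4 and -0.34 to 0.51 for UCHL5. For bortezomib over the mean of the 3 lines it ran from -0.092 to 0.33 for UCHL5. For the knockout mean with vehicle it ran from -0.045 to 0.26 for ADRM1, -0.76 to 0.24 for PSMD2, -0.76 to 0.49 for PSMD4, -0.50 to 0.67 for UCHL5 and -0.30 to 0.64 for USP14. For the knockout mean with bortezomib it ran from -0.13 to 0.0995 for ADRM1, -0.72 to 0.43 for PSMD4, -0.28 to 0.67 for UCHL5 and -0.66 to 0.36 for USP14. For the interaction it ran from -0.27 to 0.031 for ADRM1, -0.65 to 0.33 for PSMD1, -0.86 to 0.18 for PSMD2, -0.64 to 0.61 for PSMD4, -0.48 to 0.69 for UCHL5 and -0.83 to 0.19 for USP14. The lone library is assumed to vary like the other groups. In the other 18 no direction turned, among them PSMD1 in both knockout comparisons and USP14, PSMD1, PSMD2 and PSMD4 for bortezomib over the mean of the 3 lines. Depth limits little here, since the lowest member count was 441 reads, while 2 libraries per group and the R2 difference limit the tests.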
